A study of Mus musculus with 20 samples.

Results

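The RANKL, OPG and M-CSF axis is the set of secreted and membrane signals that turns cells of the monocyte lineage into osteoclasts, the cells that resorb bone. Its 7 members were taken by gene name from the 54532 genes of the count table: *Tnfsf11* (RANKL), *Tnfrsf11b* (osteoprotegerin, OPG), *Tnfrsf11a* (RANK), *Traf6*, *Csf1* (M-CSF), *Il34* and *Csf1r*. All 7 passed the filter on low counts and were among the 15984 genes tested.

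RANKL is made by osteocytes, osteoblasts, hypertrophic chondrocytes, stromal cells and activated lymphocytes, and it binds the receptor RANK on osteoclast precursors. TRAF6 is the adaptor that carries the RANK signal to NF-κB, MAP kinases and the transcription factor NFATc1, while OPG is a soluble decoy receptor that captures RANKL before it reaches RANK. M-CSF and IL-34 are alternative ligands of the receptor tyrosine kinase CSF1R, which keeps macrophages and osteoclast precursors alive and lets them express RANK.

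RNA-seq was carried out on temporomandibular joint (TMJ) tissue, the joint of the lower jaw, in 20 libraries of adult mice. All mice carried floxed *Loxl2* alleles (*Loxl2* fl/fl) and Acan-Cre, a tamoxifen-inducible Cre under the aggrecan promoter, so that deletion was aimed at cartilage cells. The 8 Control mice (4 males and 4 females) received vehicle, and the 12 LOXL2_KO mice (6 males and 6 females) received tamoxifen at 75 mg/kg on 5 consecutive days and then monthly. Injections began at 6 months of age, and condylar heads with some of the bone under the cartilage were collected 4 months later. The comparison asks how the osteoclast-forming signals of the joint differ after the deletion. Tamoxifen and the deletion came together in the same mice, so their effects cannot be told apart, and the sex of each library was not given.

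*Loxl2*, the targeted gene, was not lower in the libraries labelled LOXL2_KO. Its mean in the Controls was 64.4 CPM (SD 30.8, n = 8), where CPM is a count scaled to the size of its library, and its mean in LOXL2_KO was 100 CPM (SD 26.8, n = 12). The difference, 0.64 on the log2 scale with an SE of 0.28, did not pass (edgeR adjusted p = 0.101). The labels were kept as given, and every direction below is that of the libraries labelled LOXL2_KO. Totals ran from 11153820 to 27045668 counts per library, so that 3 counts correspond to between 0.111 and 0.269 CPM. Chondrocyte markers varied widely, with a summed level of 41.9 to 3140 CPM in Control and 456 to 4954 CPM in LOXL2_KO. The lowest sum was that of Control replicate 8, which held very little cartilage transcript, followed by Control replicate 6 at 198 CPM. The lowest Control values of *Col2a1* and *Acan* were 1.68 and 2.22 CPM, against Control means of 561 and 115 CPM. Skeletal muscle markers summed to between 32372 and 155159 CPM, the latter in Control replicate 8. The libraries least like the others were Control replicates 8 and 1 and LOXL2_KO replicate 2, with median Spearman correlations of 0.913, 0.939 and 0.943. These data come from whole tissue, in which fewer cells of a type and less RNA per cell cannot be told apart.

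Of the 7 members, 3 were upregulated in LOXL2_KO, namely *Csf1*, *Tnfrsf11a* and *Csf1r*, and none was downregulated (edgeR quasi-likelihood test, adjusted p under 0.05). Among all genes tested, 23% passed in either direction, 12% passed as higher, and 3.71% passed as higher by at least 2-fold, as these 3 members did. In these same 3 members all 12 LOXL2_KO libraries lay above the Control median, against 7.34% of all genes tested. With DESeq2, *Tnfsf11* passed as well, which made 4 of 7 members against 22.5% of the genes that DESeq2 tested. No member separated the groups completely, and of all 15984 genes tested only 48 did.

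**Figure D1:**
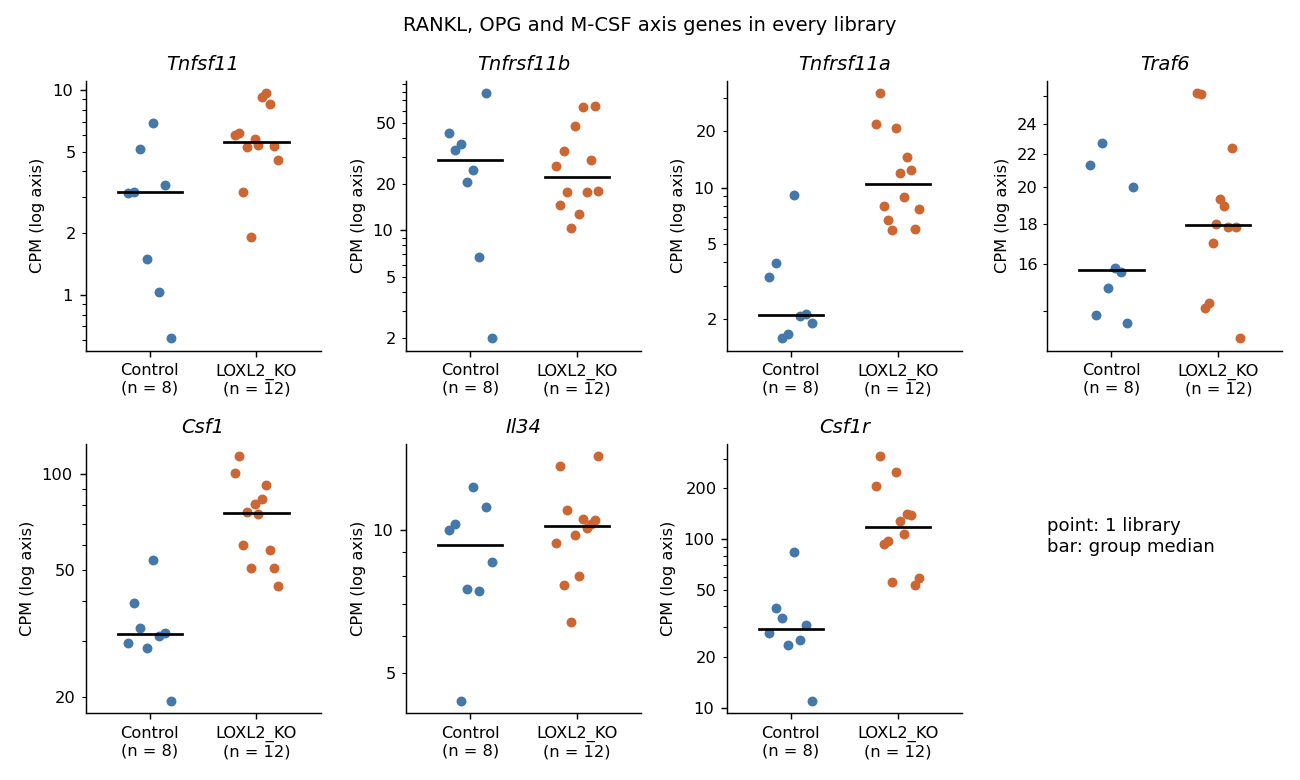
CPM on a log axis (vertical) of the 7 genes in each of 8 Control and 12 LOXL2_KO libraries (points), with the group medians (bars). *Tnfrsf11a*, *Csf1* and *Csf1r* have all 12 LOXL2_KO points above the Control median, while the *Tnfrsf11b*, *Traf6* and *Il34* points of the groups share most of their range.

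The promoter windows are shown because they hold the start sites of the ligand genes *Tnfsf11* and *Csf1* and of *Tnfrsf11a*, the receptor gene for RANKL. RefSeq windows on GRCm38.p6, from 250 bases before to 50 bases after the annotated start, were found for 4 of the 7 members. Those of the ligands *Tnfsf11* and *Csf1* and of the receptor *Tnfrsf11a* are printed 5′ to 3′ on the strand of the gene, with motif matches on either strand in capitals. The motifs searched were TATAAA for the TATA box, CCAAT for the site of NF-Y, GGGCGG for the GC box, TGACTCA for AP-1, TGTGGT for RUNX factors, GAGGAAGT for PU.1, CACGTG for the E-box and GGACTTTCC for NF-κB, and no matches overlapped.
Tnfsf11, chr14:78307994-78308293, minus strand: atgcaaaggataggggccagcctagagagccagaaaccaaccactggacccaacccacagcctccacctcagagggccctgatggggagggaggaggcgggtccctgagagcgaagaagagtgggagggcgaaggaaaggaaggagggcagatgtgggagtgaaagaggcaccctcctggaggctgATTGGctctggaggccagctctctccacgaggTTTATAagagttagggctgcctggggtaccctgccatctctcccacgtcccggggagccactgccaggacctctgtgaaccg
Csf1, chr3:107760420-107760719, minus strand: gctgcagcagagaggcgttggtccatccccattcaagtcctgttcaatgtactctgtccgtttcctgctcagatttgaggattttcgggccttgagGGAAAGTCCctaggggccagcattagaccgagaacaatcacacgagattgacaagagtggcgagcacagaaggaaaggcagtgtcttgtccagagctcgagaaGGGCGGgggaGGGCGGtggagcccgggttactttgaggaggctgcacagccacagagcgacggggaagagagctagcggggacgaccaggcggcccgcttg
Tnfrsf11a, chr1:105780473-105780772, plus strand: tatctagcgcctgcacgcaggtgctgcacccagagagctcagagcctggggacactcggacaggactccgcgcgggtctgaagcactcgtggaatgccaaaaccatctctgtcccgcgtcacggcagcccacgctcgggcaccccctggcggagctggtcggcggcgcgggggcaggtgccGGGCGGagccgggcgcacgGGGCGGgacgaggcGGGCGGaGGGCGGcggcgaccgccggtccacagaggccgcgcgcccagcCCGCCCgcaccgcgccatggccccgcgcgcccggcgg

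The *Tnfsf11* window held a reversed TATAAA at positions -32 to -27 from the start, which 13.6% of all 32851 windows hold on either strand, and a reversed CCAAT at positions -64 to -60, which 37.4% hold. The *Csf1* window held 2 copies of GGGCGG, which is found in 35.7% of windows, and a reversed GGACTTTCC at positions -154 to -146, which is found in 0.344%. The *Tnfrsf11a* window was the richest in G and C, at 76.7% against a median of 52.7%, with 43 CpG dinucleotides against a median of 7 and with 5 copies of GGGCGG. The window of *Traf6* (chr2:101678170-101678469, plus strand) held 2 copies of GGGCGG and a reversed TGTGGT, the latter found in 16.8% of windows. These are matches of letters only, and factor binding was not measured.

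*Tnfsf11* encodes RANKL, the ligand that osteoclast precursors need, and lies at chr14:78277445-78308043 on the minus strand (mm10). In Control its level ran from 0.611 CPM through a median of 3.16 to 6.87 CPM. In LOXL2_KO it ran from 1.91 through 5.58 to 9.63 CPM, and 11 of the 12 libraries lay above the Control median but only 3 lay above the highest Control. The means were 3.11 ± 2.12 CPM (SD, n = 8) and 5.91 ± 2.30 CPM (SD, n = 12). The log2 fold change was 0.92 (SE 0.36, 95% interval 0.17 to 1.67), which did not pass in edgeR (adjusted p = 0.0685) and passed in DESeq2 (adjusted p = 0.0341). It was the least covered member, with 8 to 210 counts per library. Single libraries decided the edgeR call, since it passed without Control replicate 5 (adjusted p = 0.0203) or without LOXL2_KO replicate 5 (adjusted p = 0.0360), and without the 3 libraries least like the others the log2 fold change was 0.74 (adjusted p = 0.195).

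*Tnfrsf11b* encodes OPG, the decoy receptor, and lies at chr15:54250619-54278484 on the minus strand. It ran from 1.99 CPM in Control replicate 8 through a median of 28.9 to 77.9 CPM in Control replicate 7, and from 10.4 through 22.1 to 64.4 CPM in LOXL2_KO. The LOXL2_KO values lay wholly inside the Control range, and 4 of 12 lay above the Control median. The log2 fold change was -0.06 (SE 0.46, adjusted p = 0.945), with a 95% interval from -1.01 to 0.90 that leaves room for a change of up to about 2-fold either way. The spread between libraries of the same group was wide for this gene, with a coefficient of variation of 77.8% in Control and 64.4% in LOXL2_KO.

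*Tnfrsf11a* encodes RANK, the receptor on osteoclast precursors and osteoclasts, and lies at chr1:105780718-105847981 on the plus strand. Control libraries ran from 1.57 CPM through a median of 2.10 to 9.11 CPM, the highest being Control replicate 5. LOXL2_KO libraries ran from 5.95 through 10.5 to 31.8 CPM, so that 7 of 8 Controls were below every LOXL2_KO library and 6 of 12 LOXL2_KO libraries were above every Control. RANK was upregulated 4.06-fold (log2 fold change 2.02, SE 0.39, edgeR adjusted p = 0.00214), with a 95% interval of 2.30 to 7.16-fold. Without the 3 libraries least like the others, the log2 fold change was 1.73 (adjusted p = 0.0147).

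*Traf6*, the adaptor downstream of RANK, lies at chr2:101678429-101701669 on the plus strand and was among the steadiest members. It ran from 13.5 through 15.8 to 22.7 CPM in Control and from 12.9 through 17.9 to 26.2 CPM in LOXL2_KO, and the groups overlapped over most of their range. The means were 17.2 ± 3.58 CPM (SD, n = 8) and 18.8 ± 4.32 CPM (SD, n = 12), with a log2 fold change of 0.12 (SE 0.14, 95% interval -0.17 to 0.41, adjusted p = 0.562). The interval leaves no room for a change as large as that of RANK.

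*Csf1* encodes M-CSF and lies at chr3:107741048-107760469 on the minus strand. Control libraries ran from 19.4 CPM through a median of 31.5 to 53.8 CPM, and LOXL2_KO libraries from 44.7 through 75.8 to 114 CPM. All Controls but replicate 5 were below every LOXL2_KO library, and 9 of 12 LOXL2_KO libraries were above every Control. *Csf1* was upregulated 2.22-fold (log2 fold change 1.15, SE 0.19, 95% interval 0.76 to 1.54, adjusted p = 0.00115). It had the smallest p of the 7 members, and its log2 fold change was 0.96 (adjusted p = 0.00749) without the 3 libraries least like the others.

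*Il34*, which encodes the other CSF1R ligand and lies at chr8:110741829-110805924 on the minus strand, showed no such difference. It ran from 4.37 through 9.28 to 12.3 CPM in Control and from 6.40 through 10.2 to 14.3 CPM in LOXL2_KO. The means were 8.96 ± 2.52 CPM (SD, n = 8) and 10.1 ± 2.25 CPM (SD, n = 12), with a log2 fold change of 0.18 (SE 0.17, 95% interval -0.17 to 0.53, adjusted p = 0.470). The interval ends below the start of that of *Csf1*. The antisense genes *Gm15895* and *Gm15894* overlap 3.83% and 1.12% of its exon bases, and both had mean levels below 0.2 CPM.

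*Csf1r* encodes the shared receptor of M-CSF and IL-34 and lies on chromosome 18, from 61100598 to 61132149, on the plus strand. It ran from 10.9 CPM through a median of 29.4 to 84.1 CPM in Control and from 53.6 through 118 to 312 CPM in LOXL2_KO. As for *Csf1* and *Tnfrsf11a*, Control replicate 5 was the only Control inside the LOXL2_KO range, and 9 of 12 LOXL2_KO libraries were above it. *Csf1r* was upregulated 3.99-fold (95% interval 2.32 to 6.86-fold, edgeR adjusted p = 0.00183), with an SE of 0.38 on the log2 scale. Without the 3 libraries least like the others its log2 fold change was 1.62 (adjusted p = 0.0117). The gene *Hmgxb3* on the opposite strand overlaps 15.1% of its exon bases, and the use of strand in the counting was not given, but *Hmgxb3* itself had a log2 fold change of -0.02 (adjusted p = 0.901).

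**Figure D2:**
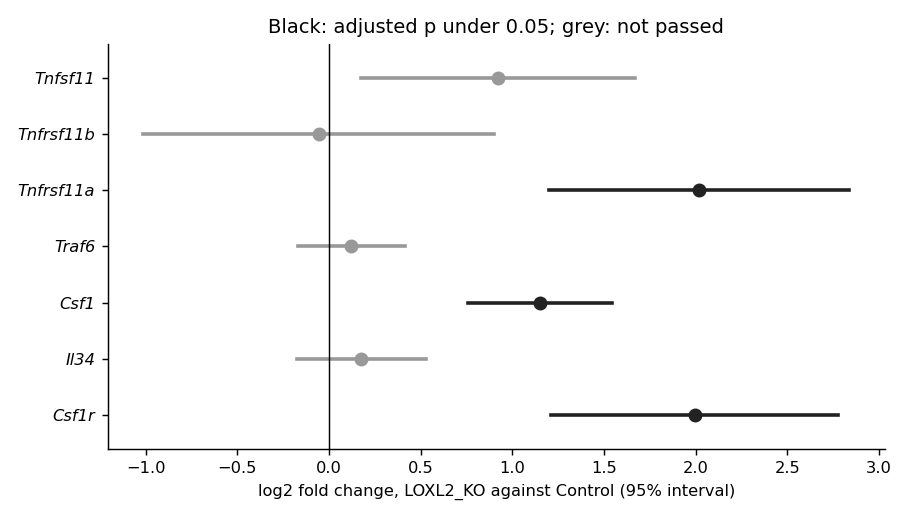
Log2 fold change of LOXL2_KO against Control (horizontal, points) with its 95% interval (lines) for the 7 genes, in black where the edgeR adjusted p was under 0.05. The intervals of *Tnfrsf11a*, *Csf1* and *Csf1r* lie wholly above 0, from 1.20 to 2.84, 0.76 to 1.54 and 1.21 to 2.78, and that of *Tnfsf11* starts at 0.17 but did not pass after adjustment over all genes.

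To compare levels between genes, counts were also expressed per kilobase of exon (RPKM). In Control the decoy receptor ranked first, at 10.9 ± 8.44 RPKM (SD, n = 8), followed by *Csf1* at 6.31 ± 1.89, *Csf1r* at 5.96 ± 3.77 and *Il34* at 4.57 ± 1.29 RPKM. Lower levels were found for *Traf6*, at 2.19 ± 0.455, *Tnfsf11*, at 1.39 ± 0.948, and *Tnfrsf11a*, at 0.539 ± 0.422 RPKM. Neighbours in this order differed by less than the larger of their SDs, except *Il34* and *Traf6*. In LOXL2_KO the order began with *Csf1r* at 23.8 ± 14.1 RPKM (SD, n = 12), *Csf1* at 14.0 ± 4.13 and *Tnfrsf11b* at 10.5 ± 6.75 RPKM, then *Il34* at 5.17 ± 1.15. *Tnfsf11* (2.64 ± 1.03), *Traf6* (2.38 ± 0.548) and *Tnfrsf11a* (2.18 ± 1.34 RPKM) stood close together at the end. The only neighbours there that differed by more than the larger of their SDs were *Il34* and *Tnfsf11*. The order is a description and was not tested.

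The balance of RANKL to OPG was taken as the ratio of their counts within each library, which does not depend on scaling between libraries. Control libraries held from 0.0443 *Tnfsf11* counts per *Tnfrsf11b* count through a median of 0.119 to 0.321, and LOXL2_KO libraries from 0.0828 through 0.241 to 0.539. In geometric means there were 8.25 OPG counts per RANKL count in Control and 4.53 in LOXL2_KO, or 6.55 and 3.59 per unit of exon length. OPG counts outnumbered RANKL counts in all 20 libraries. The log2 ratio was higher in LOXL2_KO by 0.87 (SE 0.43), with 10 of 12 libraries above the Control median, but a two-sided exact permutation test, which ran through all 125970 assignments of libraries, gave p = 0.0554 (adjusted over 4 ratios, 0.0554). Control replicate 8 had the fewest OPG counts (26) and the lowest chondrocyte marker sum of all libraries. It had the highest ratio of its group, and p was 0.0217 without it. The value also fell below 0.05 without Control replicate 5 or LOXL2_KO replicate 3, 6 or 11, with log2 differences between 0.94 and 1.04, so the call rests on single libraries.

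The remaining ratios compared the ligands of CSF1R and each receptor with its ligand. There were 3.73 *Csf1* counts per *Il34* count in Control and 7.17 in LOXL2_KO (geometric means), a log2 difference of 0.94 (exact permutation p = 0.00115, adjusted p = 0.00232), and 11 of 12 LOXL2_KO libraries exceeded the Control median. Per unit of exon length these ratios were 1.38 and 2.66, so that on average M-CSF was the more abundant transcript in both groups and by more in LOXL2_KO. That order was not tested, and in Control replicate 8 *Csf1* was the lower, at 3.68 against 4.37 RPKM for *Il34*. *Csf1r* rose more than its ligand *Csf1*, from 0.927 to 1.66 counts per *Csf1* count, a log2 difference of 0.84 (exact permutation p = 0.00116, adjusted p = 0.00232) seen in 12 of 12 libraries relative to the Control median. *Tnfrsf11a* counts per *Tnfsf11* count were 1.11 in Control and 2.06 in LOXL2_KO, a log2 difference of 0.90 (exact permutation p = 0.0337, adjusted p = 0.0450), and 10 of 12 LOXL2_KO libraries exceeded the Control median. That last call did not hold without Control replicate 3 (log2 difference 0.63, p = 0.0925) or 7 (0.78, p = 0.0719), nor without LOXL2_KO replicate 1, 2, 5 or 6 (p between 0.0521 and 0.0556).

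**Figure D3:**
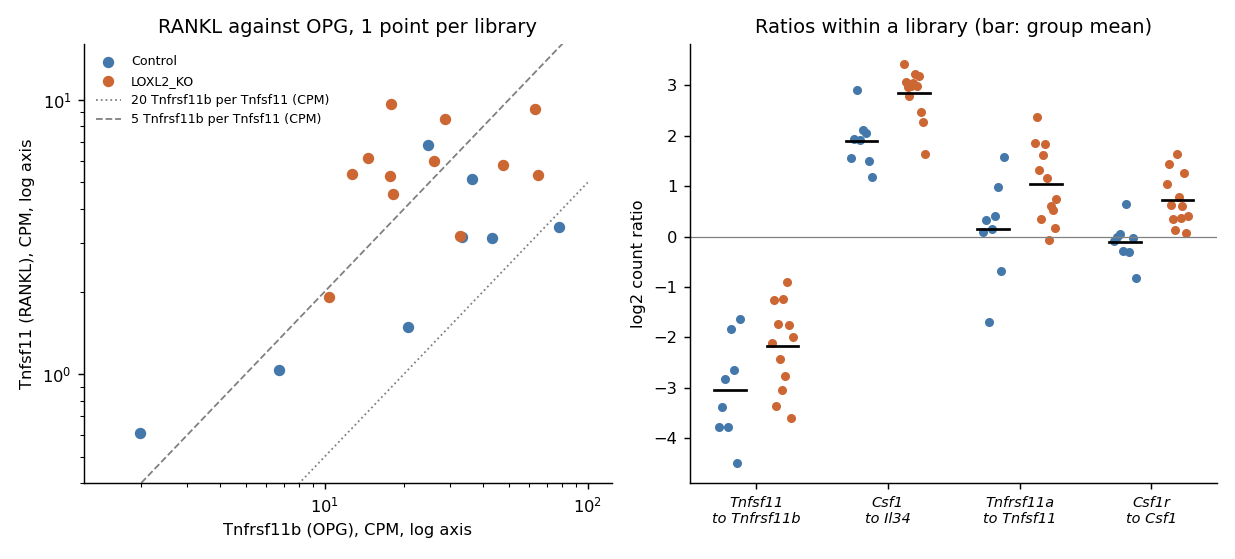
Left, *Tnfsf11* CPM (vertical) against *Tnfrsf11b* CPM (horizontal) in each library, both on log axes, with lines at 20 and 5 units of *Tnfrsf11b* per unit of *Tnfsf11*; right, log2 count ratios (vertical) of 4 gene pairs by library, with group means as bars. The Control mean of the RANKL to OPG log2 ratio is -3.04 and that of LOXL2_KO is -2.18, with overlapping points.

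Genes that act with the axis were examined as 5 lists holding 78 genes, of which 70 were tested. Of these, 25 were upregulated, 3 were downregulated and 42 did not pass. That is 40% called against 23% of all genes tested, and the median log2 fold change was 0.31 against -0.02 over all genes. The lists were chosen with earlier results of these data known, so these shares are descriptions and not independent support.

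Of 26 genes of RANK signalling, 8 rose, 3 fell and 15 did not pass, with a median log2 fold change of 0.04. *Src*, a kinase needed for the ruffled border of osteoclasts, rose from a mean of 13.5 CPM to 33.0 CPM (log2 fold change 1.29, SE 0.29, adjusted p = 0.00419). *Gab2*, a scaffold bound to RANK, rose by a log2 fold change of 0.39 (adjusted p = 0.00628), *Nfatc1*, the master transcription factor of osteoclasts, by 0.55 (adjusted p = 0.00920), and *Relb*, of the alternative NF-κB pathway, by 0.46 (adjusted p = 0.00929). The other risers were *Nfkb2*, *Fos*, *Nfkbia* and *Rela*, with log2 fold changes of 0.37, 1.28, 0.40 and 0.33. The genes that fell were *Ppp3ca* and *Ppp3r1*, which encode subunits of calcineurin, the phosphatase that activates NFAT proteins, and *Cyld*, a deubiquitinase that restrains NF-κB, with log2 fold changes of -0.33, -0.33 and -0.35. These lower calls depended on the scaling and on single libraries: with library totals alone 9 genes of the list rose and 0 fell, 1 fell without Control replicate 4 or 8, 2 fell without Control replicate 3 or LOXL2_KO replicate 9, and 3 rose and 0 fell without the 3 libraries least like the others.

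The list of CSF1R signalling and regulators held 16 genes, of which 7 rose, none fell and 9 did not pass, and its median log2 fold change was 0.56. *Spi1*, which encodes PU.1, a transcription factor of myeloid cells, rose from 6.81 ± 4.17 to 29.4 ± 17.7 CPM (log2 fold change 2.11, SE 0.38, adjusted p = 0.00144). *Csf2rb*, the shared chain of the GM-CSF receptor, rose by a log2 fold change of 1.46 (adjusted p = 0.00203), *Inpp5d*, the phosphatase SHIP1 of blood cells, by 1.11 (adjusted p = 0.00222), and *Sdc1*, a syndecan that can bind IL-34, by 1.31 (adjusted p = 0.00732). The ubiquitously used signalling genes *Grb2*, *Sos1*, *Cbl*, *Pik3r1* and *Akt1* did not pass, with log2 fold changes between -0.27 and 0.30.

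Of 20 genes of agents that induce RANKL and their receptors, 14 were tested, 7 rose, none fell and 7 did not pass, with a median of 0.52. *Vdr*, the vitamin D receptor, rose from 10.4 ± 6.84 to 48.9 ± 33.8 CPM (log2 fold change 2.24, SE 0.44, adjusted p = 0.00222). *Lif*, a cytokine of the IL-6 family, rose by 1.85 (adjusted p = 0.00488), *Tnfrsf1a*, a receptor of TNF, by 0.66 (adjusted p = 0.00529) and *Osmr*, the oncostatin M receptor, by 0.51 (adjusted p = 0.0125), all as log2 fold changes. The cytokine genes *Il6*, *Osm*, *Il1a*, *Il1b*, *Tnf* and *Il17a* did not pass the filter on low counts in edgeR, with group means of at most 0.449 CPM. Of the 12 LOXL2_KO libraries, 12 lay above the Control median for *Osm*, 11 for *Il1b*, 9 for *Tnf* and 7 for *Il1a*. For *Il6* 3 did so and for *Il17a* 0. These levels were near the floor.

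Of 10 other partners and restraints of the axis, 9 were tested and 2 rose, namely *Tgfb1* by a log2 fold change of 1.06 (adjusted p = 0.00125) and *Ifngr1*, a chain of the interferon gamma receptor, by 0.44 (adjusted p = 0.00628). That is 22.2% called, all as higher, against 23% of all genes tested in either direction and 12% as higher. *Lgr4*, described as another receptor for RANKL, had a log2 fold change of -0.01 (adjusted p = 0.973). Of 6 genes with a part in the shedding of membrane-bound ligands, 5 were tested and only *Mmp14* rose. *Mmp14* encodes a membrane-bound metalloproteinase that can release RANKL from the cell surface. It went from 125 ± 58.1 to 428 ± 142 CPM (log2 fold change 1.78, SE 0.29, adjusted p = 0.00115). The 20% called in that list stood against the same 23% and 12% among all genes. With so few genes in these lists, the shares say little.

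**Figure D4:**
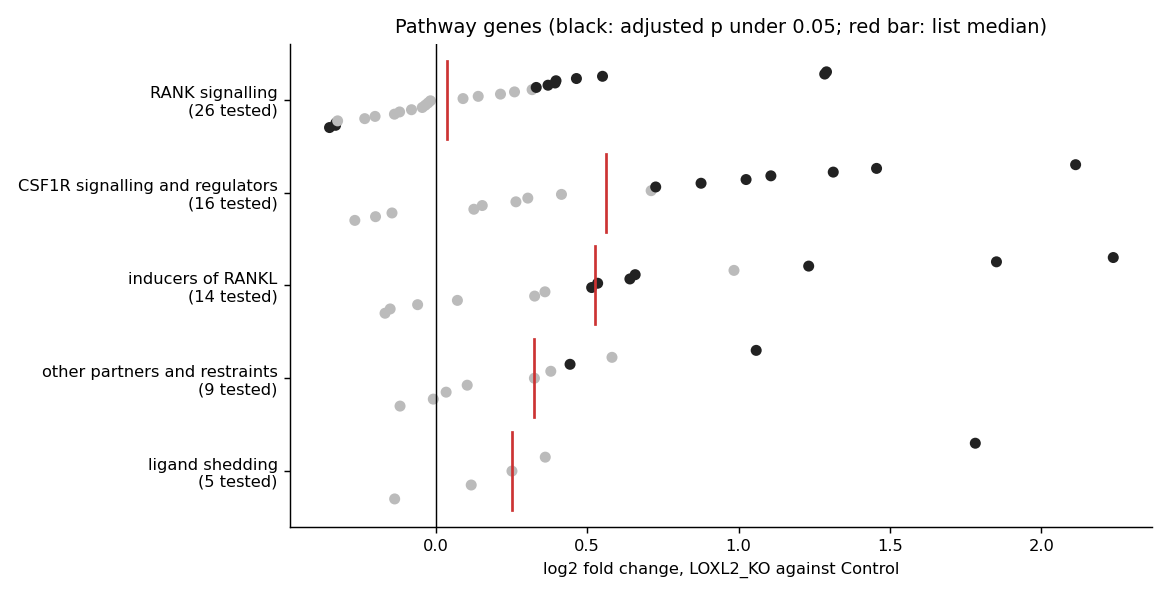
Log2 fold change of LOXL2_KO against Control (horizontal) of the 70 tested genes in the 5 lists (rows; points are genes, black where the edgeR adjusted p was under 0.05, and red bars are list medians). Most genes of RANK signalling lie near 0, with a median of 0.04, while *Vdr*, *Spi1*, *Lif* and *Mmp14* lie farthest to the right, between 1.78 and 2.24.

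Markers of the cells that carry or make these signals moved with the groups. The marker lists too were chosen with earlier results of these data known, so their p-values are not independent support. Among all 15984 genes tested, 12% passed as higher and 1755 genes passed as lower. Of 12 osteoclast markers, 11 rose and *Car2* did not pass, none was at 0 across the libraries, and their summed level ran from 197 to 1556 CPM in Control and from 707 to 8391 CPM in LOXL2_KO. The level of the list, taken as its median log2 CPM, was higher by 1.43 (exact permutation, adjusted p = 0.00857). Of 11 macrophage markers, 8 rose, with sums of 91.8 to 313 and 208 to 921 CPM and a level higher by 0.95 (exact permutation, adjusted p = 0.000826). Of 11 osteoblast and osteocyte markers, 5 rose and 6 did not pass, including *Sost* and *Fgf23* with log2 fold changes of -0.11 and -0.57. The sums were 1292 to 12133 and 4005 to 38598 CPM, and *Col1a1* alone had means of 3234 and 18268 CPM. The level of this list was higher by 1.42 (exact permutation, adjusted p = 0.0297). Skeletal muscle markers moved the other way, with 3 of 10 lower, sums of 45052 to 155159 and 32372 to 82386 CPM and a level lower in LOXL2_KO by 0.57 on the log2 scale (exact permutation, adjusted p = 0.0366).

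The chondrocyte list, with 1 of 8 tested genes higher, did not pass (log2 difference 0.38, exact permutation, adjusted p = 0.710), nor did the lists of neutrophil (2.14, adjusted p = 0.110), T cell (0.08, adjusted p = 0.831), B cell (-0.46, adjusted p = 0.552), erythroid (-0.80, adjusted p = 0.237), endothelial (-0.35, adjusted p = 0.149), adipocyte (-0.33, adjusted p = 0.710), synovial lining and tendon (0.54, adjusted p = 0.171) or keratinocyte (-0.97, adjusted p = 0.505) markers. The 12.5% of tested chondrocyte genes called was close to the 12% called higher among all genes tested. The T cell list lay near the floor, with sums of 1.10 to 3.74 CPM in Control and 1.12 to 17.7 CPM in LOXL2_KO. Of its 8 genes only *Cd4* was tested, and it was higher (log2 fold change 1.78, edgeR adjusted p = 0.0309). The level of that list can therefore show little about T cells. Of the 6 keratinocyte genes, 4 did not pass the filter on low counts. The share of counts from mitochondrial genes ran from 15.2 to 23.1% in Control and from 9.06 to 18.3% in LOXL2_KO, and its part in the results was not tested.

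The calls of the receptor genes and of *Csf1* changed when marker levels entered the fit. With the level of the osteoclast list as a covariate in edgeR, the log2 fold changes were 0.60 for *Csf1r* (adjusted p = 0.261), 0.70 for *Tnfrsf11a* (adjusted p = 0.297) and 0.53 for *Csf1* (adjusted p = 0.230), each still positive and with an unadjusted p under 0.05, while no gene of the whole table passed and 1873 had an unadjusted p under 0.05. With the macrophage list they were 0.92, 1.07 and 0.57, again with no gene passing and 1104 at an unadjusted p under 0.05. On the macrophage list level, 11 of 12 LOXL2_KO libraries lay above the highest Control, so this fit can hardly separate list level from group. The SE of *Tnfrsf11a* was 0.49 in it, against 0.39 with no covariate. On the osteoclast and the osteoblast and osteocyte lists, 8 and 9 of 12 lay above the highest Control. With the osteoblast and osteocyte list, *Csf1* (0.83, adjusted p = 0.0275) and *Csf1r* (1.23, adjusted p = 0.0413) passed and *Tnfrsf11a* did not (1.23, adjusted p = 0.0584), whereas *Tnfsf11* had a log2 fold change of 0.14 (adjusted p = 0.805). In that same fit *Tnfrsf11b* had a log2 fold change of -0.99 (SE 0.41, unadjusted p = 0.0255 and adjusted p = 0.183 in edgeR), its largest departure from the fit with no covariate. With the skeletal muscle list, *Csf1* (0.74, adjusted p = 0.0266) and *Csf1r* (1.22, adjusted p = 0.0430) passed, *Tnfrsf11a* did not (1.36, adjusted p = 0.0511), and *Tnfrsf11b* had a log2 fold change of -0.42 (adjusted p = 0.660). With the chondrocyte list, an alternative added after the data were seen, *Tnfsf11* passed (0.96, SE 0.28, adjusted p = 0.0165), and the SE of *Tnfrsf11b* was 0.20 in place of 0.46 with a log2 fold change of -0.05.

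Relations between members and lists were then taken within each group, where the group difference plays no part. Of 24 relations, 6 passed for Pearson's r and 7 for Spearman's rho (permutation tests, adjusted over the 24). In the 12 LOXL2_KO libraries, RANK followed the osteoclast list with r = 0.93 (permutation p = 1e-05, the smallest these resamples can give, adjusted 0.00012) and rho = 0.97 (permutation p = 2e-05), and r was 0.91 without the 2 libraries farthest from the median list level. *Csf1r* did so as well, with r = 0.96 (permutation p = 1e-05, adjusted 0.00012), rho = 0.96 (permutation p = 3e-05) and r = 0.95 without 2 libraries. For *Csf1*, r was 0.81 (permutation p = 0.00135, adjusted 0.00648), rho was 0.83 (permutation p = 0.00167) and r was 0.71 without 2 libraries.

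In the 8 Control libraries these relations did not pass, with r = 0.63 for *Tnfrsf11a* (permutation p = 0.0989, adjusted 0.170), 0.81 for *Csf1r* (permutation p = 0.0191, adjusted 0.0541) and 0.80 for *Csf1* (permutation p = 0.0203, adjusted 0.0541), and r fell to 0.01, 0.30 and 0.26 without Control replicates 5 and 8. The difference between the groups in these relations was not tested. In Control, *Csf1r* followed the macrophage list with r = 0.86 (permutation p = 0.000893, adjusted 0.00536), rho = 0.93 (permutation p = 0.00223) and r = 0.82 without 2 libraries, and in LOXL2_KO this r was 0.48 (permutation p = 0.113, adjusted 0.181).

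RANKL followed the osteoblast and osteocyte list in both groups. In Control r was 0.93 (permutation p = 0.000719, adjusted 0.00536), rho was 0.90 (permutation p = 0.00456) and r was 0.92 without 2 libraries. In LOXL2_KO r was 0.77 (permutation p = 0.00455, adjusted 0.0182), rho was 0.77 (permutation p = 0.00492) and r was 0.68 without 2 libraries. OPG showed r = 0.86 with the same list in Control (permutation p = 0.0163, adjusted 0.0541), which rested on Control replicates 6 and 8, since r was 0.20 without them. In LOXL2_KO this r was 0.58 (permutation p = 0.0473, adjusted 0.102), rho was 0.57 (permutation p = 0.0587) and r was 0.36 without 2 libraries. Neither OPG nor the RANKL to OPG ratio gave a relation with the osteoclast list that passed. Their r was 0.29 and 0.30 in Control and 0.10 and 0.32 in LOXL2_KO (permutation, adjusted p between 0.415 and 0.849). In Control, r was -0.23 for OPG and 0.67 for the ratio without replicates 5 and 8. In LOXL2_KO, it was 0.01 for OPG and 0.18 for the ratio without replicates 2 and 5. *Tnfsf11* itself gave r of 0.68 and 0.57 with the osteoclast list (permutation, adjusted p = 0.118 and 0.102), and its rho of 0.71 in LOXL2_KO passed (permutation p = 0.0133, adjusted 0.0456). *Traf6* and *Il34* gave no relation that passed, including that of *Il34* with the chondrocyte list (r = 0.10 and 0.33).

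**Figure D5:**
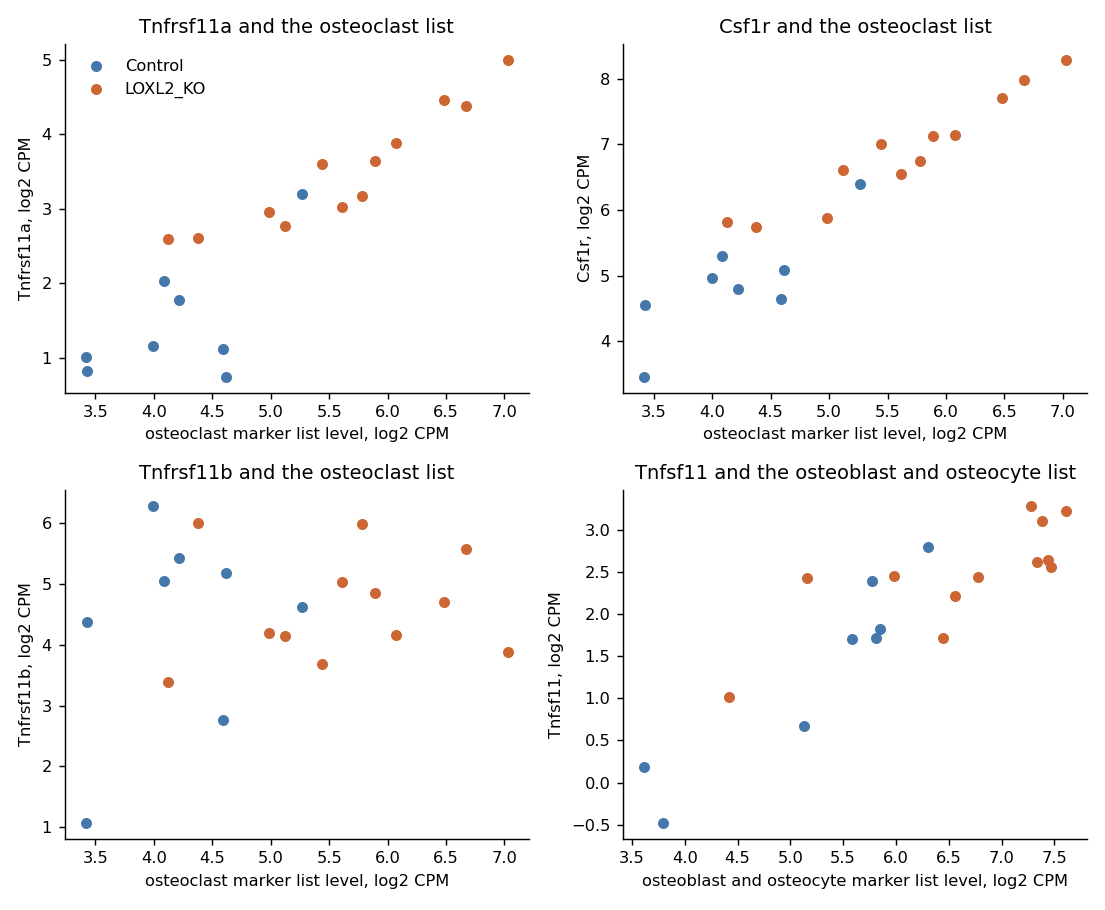
Log2 CPM of a member (vertical) against the median log2 CPM of a marker list (horizontal), 1 point per library, for *Tnfrsf11a*, *Csf1r* and *Tnfrsf11b* with the osteoclast list and *Tnfsf11* with the osteoblast and osteocyte list. *Tnfrsf11a* and *Csf1r* climb with the list across the LOXL2_KO points (r = 0.93 and 0.96), *Tnfrsf11b* does not (r = 0.10), and *Tnfsf11* climbs in both groups (r = 0.93 and 0.77).

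The genes whose levels were most like each member over the 20 libraries, after removal of the group means, differed from member to member. These correlations are descriptions across libraries that share depth and tissue composition, over 10748 or 10749 protein-coding genes with a mean of at least 5 CPM. *Tnfrsf11b* was most like *Col10a1* (r = 0.97), the collagen of hypertrophic chondrocytes, then *Rbp4* (0.96) and *1500015O10Rik* (0.95). *Tnfsf11* was most like *Nek8* (0.95), *Rab36* (0.92) and *Arap1* (0.91). The receptor genes sat with genes of osteoclasts and macrophages, *Tnfrsf11a* with *Slc9b2* (0.93), *Tcirg1*, a subunit of the osteoclast proton pump (0.91), and *Jdp2* (0.91), and *Csf1r* with the macrophage gene *Cd68* (0.98), *Laptm5* (0.97) and *Ctsk*, the collagen-degrading protease cathepsin K (0.97). *Csf1* was most like *Shc2* (0.95), *Laptm5* (0.91) and *Cd68* (0.91). *Traf6* was most like *Lmbrd2*, *Zfp148* and *Sbno1* (0.89, 0.89 and 0.88), and *Il34* had the weakest neighbours, *Stk35*, *Zfp444* and *Inpp5e* (0.74, 0.73 and 0.73).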

How the data were processed

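Total RNA of TMJ tissue was sequenced by the authors as paired-end Illumina reads, trimmed with a script of the sequencing provider, mapped to mm10 and counted per gene with featureCounts (v1.5.0-p3). The deposited values are raw counts per Ensembl gene. The aligner, annotation release and use of strand are not given in the sources used here. Groups and replicate numbers came from the sample titles. The sources used here gave no batches, and no pair of libraries agreed within sampling noise.

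Of 54532 genes, 54409 were matched by identifier to GENCODE M21 (mm10) for symbols, coordinates and exon lengths. Genes passing filterByExpr (15984) were tested with edgeR (4.0.16, R 4.3.3) by the quasi-likelihood test with TMM scaling over all 20 libraries, two-sided, with Benjamini-Hochberg adjustment over all genes and a threshold of 0.05. DESeq2 (1.42.0) was the alternative test. P-values judge a difference or a relation against the spread between libraries. Ratios (0.5 added to each count) and the levels of 13 marker lists (median log2 CPM, prior count 2) were compared by exact permutation over 125970 assignments. Relations used all 40320 pairings for 8 libraries and 100000 resamples for 12, and their p was adjusted over 24. Other alternatives were size factors, filters, covariates, a replicate block and leaving out libraries.

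Of each list, up to 4 called genes with the smallest p were described, and the other list genes were named after their values were seen. For each member, the 3 genes with the highest correlation were named. Members and lists were chosen with earlier results of these data known. In data simulated for this comparison (15724 genes), 67.4% of 95 tested genes with a log2 change of 1 and 96.8% of 95 with a change of 2 were recovered. Few genes were changed, libraries were drawn independently of one another, and genes of all levels were pooled. The rates therefore need not hold for the real libraries or for a gene with few counts such as *Tnfsf11*. Promoters came from RefSeq (GRCm38.p6).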

Additional observations from a re-analysis of the deposited data

How the results depend on the processing

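The calls of *Csf1*, *Tnfrsf11a* and *Csf1r* held under other scalings, filters, dispersions, DESeq2, the block and without any 1 library, with log2 fold changes of 1.08 to 1.28, 1.82 to 2.45 and 1.82 to 2.33 in the last case. All 3 held with the chondrocyte list as covariate, and *Csf1* and *Csf1r* held with the osteoblast and osteocyte or muscle list. The other covariate fits ended the calls. The cause was not tested, and the levels of these lists also differed between the groups. With the osteoclast list the values were 0.53, 0.70 and 0.60, and with the macrophage list 0.57, 1.07 and 0.92. For *Tnfrsf11a* the value was 1.23 with the osteoblast and osteocyte list and 1.36 with the skeletal muscle list. Then 0 members passed in edgeR with the osteoclast or macrophage list, although 3 had an unadjusted p under 0.05 with either, and of all genes 0 passed (1873 and 1104 at an unadjusted p under 0.05), against 468 with the osteoblast and osteocyte list and 450 with the muscle list. In those 4 fits *Traf6* turned to -0.15, -0.12, -0.019 and -0.062.

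*Tnfsf11* passed with DESeq2 (0.92) and with the chondrocyte list (0.96), was -0.0097 with the macrophage list, and ran from 0.78 to 1.19 without single libraries. *Il34* was -0.039 with the osteoblast and osteocyte list. *Tnfrsf11b* was 0.018 with library totals alone, which moved the median of all genes to 0.12, ran from -0.22 to 0.30 without single libraries, and was -0.99 (unadjusted p = 0.0255, adjusted p = 0.183) with the osteoblast and osteocyte list and -0.42 with the muscle list.

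Called genes in the RANK, CSF1R, inducer, other partner and shedding lists numbered 0 with the osteoclast or macrophage list. With the osteoblast and osteocyte list 1 was called in each, and with the muscle list 0, 1, 0, 1 and 1. Without the 3 libraries least like the others (chosen after the data were seen), 1906 genes passed, with 3 called in the RANK list and 4 among the inducers.

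Replicate numbers shared by the groups did not pair the libraries: correlations of same-numbered deviations ran from -0.36 to 0.17, with 2 of 8 over 0.1, and 0 Controls matched their own number best. With the replicate block on 16 libraries 1786 genes passed, with 6 in the RANK list (0 of them lower) and 4 among the inducers, and 3 members. Without the block on the same libraries, 4 inducers and 2 shedding genes passed. The *Tnfrsf11a* to *Tnfsf11* difference was 1.16 with the pairing (p = 0.0547, exact sign flips), 0.71 as a difference in medians (p = 0.136, exact permutation) and 0.63 to 1.10 without single libraries. The *Tnfsf11* to *Tnfrsf11b* difference ran from 0.66 to 1.07 without single libraries and was 0.80 with the pairing (exact p = 0.219).

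Without single libraries, list levels that changed sign ran from -0.28 to 0.61 (chondrocyte), -0.12 to 0.17 (T cell) and -0.63 to 0.021 (adipocyte). At 8 to 210 counts, *Tnfsf11* was the member most limited by depth.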
